A study of Mus musculus with 26 samples.

Results

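The 24 h samples transfected with the second siRNA against Smyd3 (siSMYD3#2) were compared with the 24 h samples transfected with a control siRNA (siCtrl). The 6 libraries, 3 per group, were chosen by their treatment and time point labels from the 26 libraries of the series. C2C12 is an immortalised mouse myoblast line. Both groups were transfected on proliferating myoblasts and again when low-serum differentiation medium was added, so every library of the comparison comes from transfected cells after 24 h in that medium, and the siRNA was the labelled difference. In each group 2 libraries were extracted with NucleoSpin (called NucleoSpin 1 and NucleoSpin 2 below, from passage 14 cells) and 1 with TRIzol (from passage 11 cells), so that extraction method and passage cannot be told apart. Values given in threes follow the order NucleoSpin 1, NucleoSpin 2, TRIzol. The study's methods call the extracted samples biological replicates, while the labels do not say whether the libraries of a group came from separate cultures. Unless a subset is named, the p-values come from a fit to all siRNA libraries of the series. They measure the spread between libraries within all its groups, and not that of the 6 compared libraries alone.

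SMYD3 is a lysine methyltransferase of the SET and MYND domain family. When serum is withdrawn, myoblasts leave the cell cycle, switch on the cyclin-dependent kinase inhibitor p21 (Cdkn1a) and the transcription factor myogenin (Myog), fuse through the membrane proteins myomaker and myomixer, and build sarcomeres. Genes of DNA replication and mitosis are switched off in the same process, in part through promoter elements read by E2F factors and by the DREAM and B-MYB complexes.

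The siRNA strands are shown because they define the groups and because their seeds (bases 2 to 8, in capitals) were later searched in transcripts. They are written 5′ to 3′ without their terminal deoxynucleotides.
siSMYD3#2 sense: aGCCUGAUugaagauuuga
siSMYD3#2 antisense: uCAAAUCUucaaucaggcu
siCtrl sense: uUCUCCGAacgugucacgu
siCtrl antisense: aCGUGACAcguucggagaa
The siSMYD3#2 sense strand matched Smyd3 transcript 204 with 0 mismatches at chr1:178957505-178957523 (GRCm38, minus strand), inside the coding part of exon 12 of 12. The other siRNA of the series, siSMYD3#1, matched exon 7 of the same transcript. With siSMYD3#1 at 24 h Smyd3 mRNA was at -0.24 against siCtrl (adjusted p = 0.414), so the values of siSMYD3#1 given below come from libraries in which a loss of Smyd3 mRNA was not called. The study also followed Smyd3 mRNA by qPCR and SMYD3 protein by western blot after knockdown, in measurements outside these libraries.

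Library totals ran from 15333299 to 26317255 counts, and levels are given as CPM (counts scaled to a common library size with TMM factors), so that 1 CPM stood for about 15.3 to 26.3 counts. Smyd3, the targeted gene (chr1:178951960-179518041), was at 17.8, 19.9 and 20.7 CPM in siCtrl and at 5.46, 5.37 and 9.65 CPM in siSMYD3#2. The groups did not overlap, and the TRIzol library kept the highest siSMYD3#2 level. Smyd3 fell by 1.51 on the log2 scale (SE 0.17, adjusted p = 5.06e-05, edgeR quasi-likelihood test), a 2.84-fold lower level. Of the 4 other SMYD genes tested, the muscle methyltransferase gene Smyd1 was at 61.7, 79.5 and 10.4 CPM against 16.0, 12 and 4.12 CPM, a log2 fold change of -2.04 that did not pass (adjusted p = 0.0596), and Smyd2, Smyd4 and Smyd5 lay between -0.09 and 0.34 and did not pass either. Of 52 other genes for methylation, demethylation and deacetylation, the demethylase gene Kdm2a rose (0.35) and 51 did not pass. The myogenic markers Des (1346, 1254 and 140 CPM in siCtrl), Myf5 and Myod1 were present in every library. Of 37 markers of 8 other cell types, 7 had 0 counts in all 6 libraries, among them the macrophage marker Adgre1 and the T cell marker Cd3e, 16 were tested and 1 was called, the cartilage factor Sox9 (log2 fold change -0.57, adjusted p = 0.00295). The smooth muscle marker Smtn (-0.51, adjusted p = 0.00284) and the neuronal marker Stmn2 (0.49, adjusted p = 0.00487) passed with DESeq2, and both also passed with the 6 libraries alone and in the NucleoSpin libraries alone. The part of other cell types in the differences was not tested.

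Among 15820 genes tested, 586 differed at an adjusted p under 0.01, which is 3.7% of the genes tested. siSMYD3#2 raised 263 genes (1.66%) and lowered 323 (2.04%), and the median log2 fold change of all genes tested was -0.004. In 263 of the raised and 319 of the lowered genes the siSMYD3#2 libraries lay on that side of the siCtrl libraries within both extractions, as 7072 of all 15820 genes did in either direction. Large changes were mostly falls, with 135 lowered and 26 raised genes at or past a 2-fold change. The number of calls rested on the fit. Without the extraction covariate it was 18, with the 6 libraries fitted alone it was 1770, and leaving out 1 library gave 174 to 570, the lowest without siSMYD3#2 NucleoSpin 2. Bulk RNA gives 1 level per culture, in which fewer cells expressing a gene and less RNA per cell cannot be told apart.

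Genes of cell division were higher with siSMYD3#2. Of 75 mitosis genes tested, 29 rose and 0 fell (38.7% raised, against 1.66% of all genes), 46 did not pass, and the median log2 fold change of the list was 0.40 against -0.004 for all genes tested. The rises were modest, the highest being 0.67. Without the siSMYD3#2 NucleoSpin 2 library the count was 3, without siCtrl NucleoSpin 1 it was 4, without siCtrl NucleoSpin 2 or siSMYD3#2 NucleoSpin 1 it was 9, without siSMYD3#2 TRIzol it was 18, and without the extraction covariate it was 0, while the list median stayed between 0.37 and 0.51 in all 16 fits. A total of 73 of the 75 estimates were above 0. The exceptions, Kif11 (log2 fold change -1.45, SE 0.60) and Nek2 (-0.45, SE 0.71), did not pass and were low, at 0.739 to 6.47 CPM in siCtrl for Kif11 and 4.08 to 4.29 CPM for Nek2.

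Ccnb1, the cyclin partner of the mitotic kinase CDK1, was at 97.5, 111 and 87.9 CPM in siCtrl and at 169, 176 and 109 CPM in siSMYD3#2. Within each extraction the siSMYD3#2 libraries were higher, although the TRIzol one lay inside the siCtrl range of the NucleoSpin libraries. The rise was 0.59 (SE 0.10, adjusted p = 0.00135). Knl1 and Cdca2, which act at kinetochores and on mitotic chromatin, each rose by 0.67, the mitotic kinesin Kif14 by 0.65, and Ect2, the exchange factor that starts the cleavage furrow, by 0.59. Top2a, which untangles chromosomes, was at 396, 417 and 308 CPM against 578, 633 and 417 CPM and rose by 0.53 (SE 0.08). The proliferation marker Mki67 rose by less, from 269, 272 and 343 CPM to 342, 355 and 468 CPM, with a log2 fold change of 0.39 (SE 0.08, adjusted p = 0.00437), and it did not pass in the NucleoSpin libraries alone (0.36, adjusted p = 0.0113). The mitotic kinase gene Cdk1 itself was at 0.50 and missed the threshold (adjusted p = 0.0121).

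Genes of DNA replication and S phase were shifted by a similar amount but fewer passed. Of 68 tested, 11 rose and 0 fell (16.2%), 57 did not pass, and the list median was 0.40, with 67 of 68 estimates above 0 and the activator gene E2f2 (-0.67, adjusted p = 0.164) below. Leaving out 1 library gave 1 to 9 raised genes. The count was 2 without siCtrl NucleoSpin 1, siCtrl NucleoSpin 2 or siSMYD3#2 NucleoSpin 1, and 1 without siSMYD3#2 NucleoSpin 2. It was 0 without the extraction covariate and 23 with DESeq2. Dbf4, the activating subunit of the CDC7 kinase that fires replication origins, was at 39.8, 41.1 and 33.1 CPM in siCtrl and at 75.4, 82.7 and 56.7 CPM in siSMYD3#2. The groups did not overlap and the rise was 0.90 (SE 0.09, adjusted p = 1.56e-05). Mcm10, which loads polymerase alpha, rose by 0.71. Pola1, the catalytic subunit of that polymerase, was at 45.1, 45.6 and 29.9 CPM against 77.1, 77.2 and 42.7 CPM and rose by 0.69 (SE 0.12). Within each extraction siSMYD3#2 was higher, but its TRIzol library lay below the NucleoSpin siCtrl libraries. The helicase subunit genes Mcm2 and Mcm5 and the clamp gene Pcna had log2 fold changes of 0.39, 0.55 and 0.48 and did not pass.

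**Figure D1:**
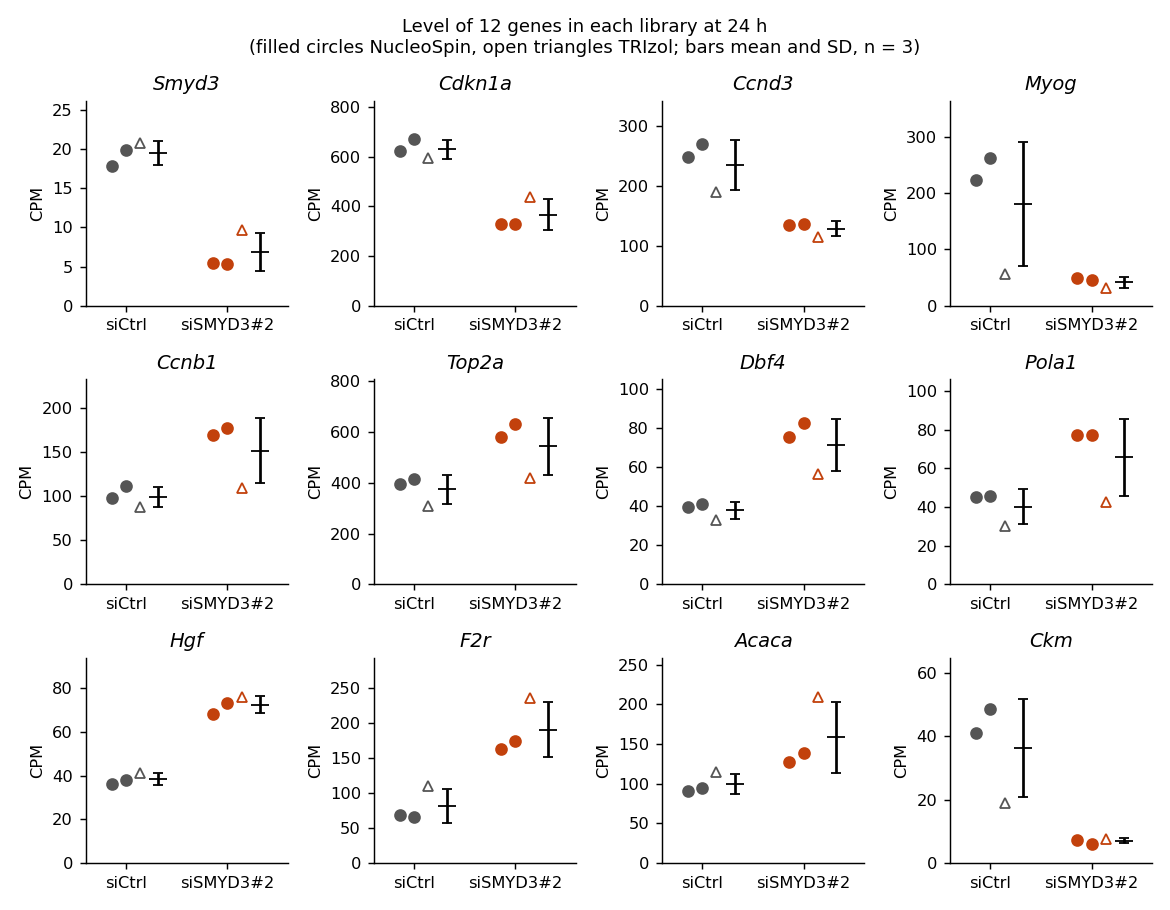
Level of 12 genes in CPM (vertical axes, from 0) in the 3 siCtrl and 3 siSMYD3#2 libraries at 24 h, with filled circles for NucleoSpin, open triangles for TRIzol, and a bar for the mean and SD of each group. Smyd3, Cdkn1a, Ccnd3, Myog and Ckm are lower with siSMYD3#2, the other 7 genes are higher, and for Myog the TRIzol siCtrl library (55.6 CPM) lies far below the NucleoSpin ones (222 and 263 CPM).

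Genes that hold or take cells out of the cycle moved the other way where they passed. Of 36 genes tested on the list of cell cycle exit and its regulators, 4 fell and 0 rose (11.1%, against 2.04% of all genes lowered), and the list median was -0.13. The count was 1 without siCtrl NucleoSpin 2 or siSMYD3#2 NucleoSpin 2, 2 without either NucleoSpin 1 library and at most 6, and the median lay between -0.18 and -0.06. Cdkn1a, which encodes the inhibitor p21, was at 622, 669 and 596 CPM in siCtrl and at 331, 330 and 439 CPM in siSMYD3#2. The groups did not overlap, and the fall was -0.80 (SE 0.14, adjusted p = 0.00156). Ccnd3, the D-type cyclin that differentiating myoblasts accumulate, went from 247, 269 and 189 CPM to 134, 137 and 114 CPM, a log2 fold change of -0.87 (SE 0.10, adjusted p = 8.16e-05). The MYC antagonist gene Mxd4 fell by 0.53 on the log2 scale and the antiproliferative gene Btg2 fell by 0.47. Ccnd1, the D-type cyclin of cycling myoblasts, did not follow the other division genes, with 226, 235 and 114 CPM in siCtrl and 102, 129 and 89.6 CPM in siSMYD3#2, and its log2 fold change of -0.83 (SE 0.20) did not pass (adjusted p = 0.0195). It passed with DESeq2 (adjusted p = 0.000576) and in the NucleoSpin libraries alone (adjusted p = 4.71e-05). The inhibitor genes Cdkn1c (-1.66, adjusted p = 0.0347) and Cdkn1b (-0.21, adjusted p = 0.341) did not pass, nor did Myc (0.18) or E2f1 (0.03). In the study's EdU assay of proliferation, knockdown cells, siSMYD3#2 included, had shares of positive nuclei comparable to controls, also after 24 h of differentiation. Its blots, shown for siSMYD3#1, found p21 and cyclin D1 protein unaffected. The values here are RNA levels, and their relation to those measurements was not tested.

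The same lists had moved with differentiation in the siCtrl cells. This comparison shares its siCtrl libraries at 24 h with that of siSMYD3#2, so the directions are not independent. Between 0 h and 24 h siCtrl changed 29.4% of genes tested, and 73 of 75 mitosis genes and 66 of 68 replication genes fell, with list medians of -0.94 and -1.16. Ccnb1 averaged 243 ± 52.8 CPM (SD, n = 3) in siCtrl at 0 h and 98.8 ± 11.6 at 24 h, and 151 ± 36.9 with siSMYD3#2 at 24 h. Pola1 averaged 90.9 ± 10.9 CPM at 0 h, 40.2 ± 8.90 in siCtrl at 24 h and 65.7 ± 19.9 in siSMYD3#2 at 24 h. Cdkn1a went from 257 ± 56.7 CPM at 0 h to 629 ± 37.0 in siCtrl and 367 ± 62.3 in siSMYD3#2. For these 3 genes the siSMYD3#2 mean at 24 h therefore lay between the siCtrl means at 0 h and 24 h. At 0 h siSMYD3#2 and siCtrl differed in 0 mitosis genes and 1 replication gene, Dbf4 (0.49), with list medians of -0.11 and -0.08. No mitosis or replication gene passed the test of the difference between the 24 h and 0 h effects, and the smallest adjusted p values were those of Anln, a cytokinesis scaffold gene (difference 0.70, SE 0.11, adjusted p = 0.0106), Ccnb1 (0.76, SE 0.14, 0.0393) and Pola1 (0.85, SE 0.16, 0.0428).

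**Figure D2:**
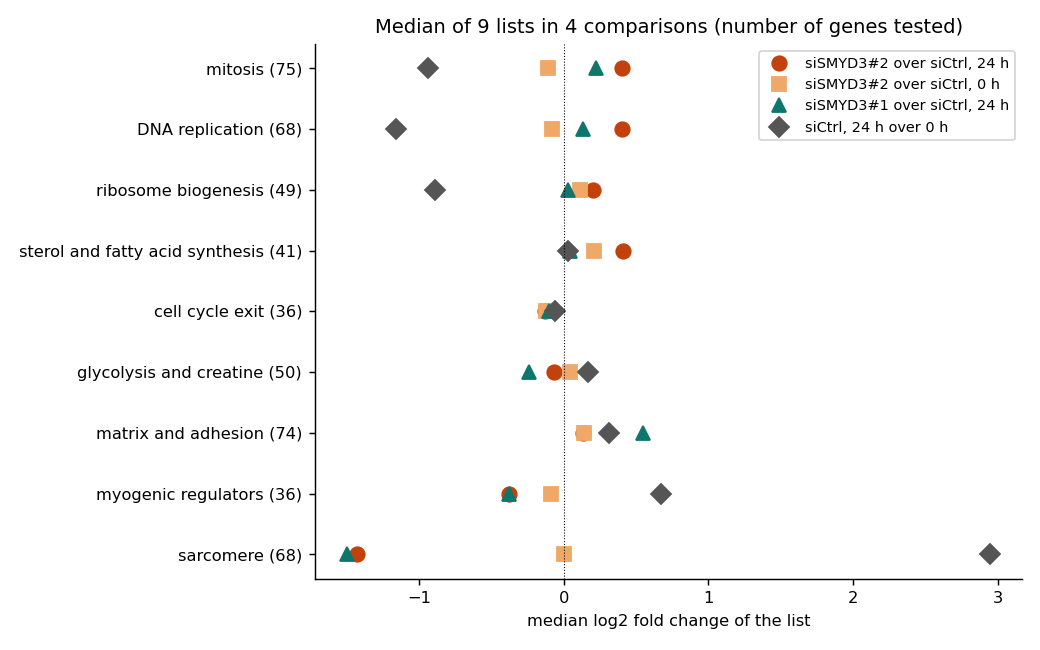
Median log2 fold change (horizontal axis) of 9 gene lists (rows, with the number of genes tested) in 4 comparisons. The mitosis and DNA replication medians of siSMYD3#2 over siCtrl at 24 h are both 0.40, against -0.11 and -0.08 at 0 h, and those of siCtrl between 24 h and 0 h are -0.94 and -1.16.

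Promoters of these groups are shown because their letters differ between the lists. Sequences are RefSeq promoters on GRCm38.p6, from 250 bases before to 50 after a start, with the motif in capitals. Aurka, a spindle kinase gene that rose by 0.55, has CCAAT at 51 and 19 bases before its start and TTTGAA 32 bases after it (chr2:172370521-172370820, minus strand). Pola1 has GCGCCAAA, the reverse complement of TTTGGCGC, 138 bases before its start and ATTGG, the reverse complement of CCAAT, 37 bases before it (chrX:93632106-93632405, minus strand). Of the Cdkn1a promoters, the one printed has CAGCTG 37 bases after its start (chr17:29090729-29091028, plus strand), and the other (chr17:29093519-29093818) holds none of the motifs searched.
Aurka: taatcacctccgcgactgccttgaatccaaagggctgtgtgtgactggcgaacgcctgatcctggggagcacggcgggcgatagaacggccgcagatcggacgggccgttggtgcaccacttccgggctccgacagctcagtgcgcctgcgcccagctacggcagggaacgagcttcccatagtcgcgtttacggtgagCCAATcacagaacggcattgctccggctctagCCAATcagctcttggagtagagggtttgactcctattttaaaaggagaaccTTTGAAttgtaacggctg
Pola1: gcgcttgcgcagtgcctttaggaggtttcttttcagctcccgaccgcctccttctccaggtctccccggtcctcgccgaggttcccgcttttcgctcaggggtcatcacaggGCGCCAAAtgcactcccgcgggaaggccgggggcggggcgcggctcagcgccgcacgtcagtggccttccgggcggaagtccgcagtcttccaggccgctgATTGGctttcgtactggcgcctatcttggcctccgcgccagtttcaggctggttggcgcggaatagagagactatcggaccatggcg
Cdkn1a: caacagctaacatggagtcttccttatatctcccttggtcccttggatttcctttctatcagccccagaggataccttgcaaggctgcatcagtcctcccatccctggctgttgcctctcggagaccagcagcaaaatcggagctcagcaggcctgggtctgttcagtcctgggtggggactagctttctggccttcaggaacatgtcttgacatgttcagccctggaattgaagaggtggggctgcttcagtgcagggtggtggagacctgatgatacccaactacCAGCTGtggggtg
Promoters were found for 10519 of 15816 symbols tested, 13477 promoters in all, and motifs were counted on both strands. The letters TTTGAA, the cell cycle genes homology region, were in 64.7% of 68 mitosis promoters, 26.2% of the promoters of raised genes 12.2% of the promoters of all genes tested and 17.9% of all 32851 promoters. CCAAT was in 76.5% of mitosis promoters, 57.1% of 63 replication promoters, 37.7% of those of genes tested and 37.4% of all. The E2F letters TTTCGCGC or TTTGGCGC were in 25.4% of replication promoters, 1.45% of those of genes tested and 0.813% of all. The E-box CAGCTG, the form that myogenic factors prefer, was in 24.0% of 329 promoters of lowered genes, 10.5% of 256 promoters of raised genes, 15.7% of those of genes tested and 16.3% of all. A match describes letters in these windows and not a bound site.

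Named signalling genes moved in both directions. In each signalling list 1 to 5 genes passed, and the list medians lay between -0.24 and 0.22. The highest shares raised were 9.38% of the Hippo and serum response targets and 8.11% of the receptor list, against 1.66% of all genes. Of the Notch list 2 of 20 genes were lowered, a larger share than the 6.25% lowered of the Hippo and serum response targets. Of all genes 2.04% were lowered. Of 64 genes of receptor tyrosine kinase and MAP kinase signalling 1 rose and 3 fell, of 43 TGF-beta and BMP genes 1 rose and 1 fell, and of 37 genes of G protein-coupled and natriuretic peptide receptors and their partners 3 rose. In these and the other lists with up to 6 calls in a direction, leaving out 1 library gave 0 to 6. Among growth factors, Hgf, the ligand of the MET receptor that activates muscle stem cells, was at 36.1, 38 and 41.2 CPM in siCtrl and at 68.4, 73.1 and 75.9 CPM in siSMYD3#2. The libraries of each group lay close together, and the rise of 0.91 (SE 0.11, adjusted p = 0.00011) was larger than that with siSMYD3#1 (0.17, not called) by 0.75 in the direct test (adjusted p = 0.000504). Tgfb3, a transforming growth factor ligand, went from 74.0, 73.1 and 91.9 CPM to 50.1, 47.7 and 59.6 CPM and fell by 0.60 on the log2 scale, while Ltbp1, which stores such ligands in the matrix, rose by 0.61. Fgf21, a secreted metabolic hormone, had a log2 fold change of -0.98 and was nearly absent from the TRIzol libraries (0.633 and 0.157 CPM), and it did not pass with the replicate number as a block (adjusted p = 0.0144) or with DESeq2 (0.0128).

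Receptor genes went both ways. F2r, the thrombin receptor PAR1, was at 69.0, 65.0 and 110 CPM in siCtrl and at 163, 174 and 235 CPM in siSMYD3#2, a rise of 1.24 (SE 0.10, adjusted p = 1.45e-06). Npr3, the clearance receptor for natriuretic peptides, was at 9.47, 8.88 and 3.98 CPM against 59.7, 73.6 and 8.31 CPM, the largest of the rises named by size (2.37, SE 0.29). It was large in the NucleoSpin libraries and small in the TRIzol pair, and did not pass with the 6 libraries alone (adjusted p = 0.025). Osmr, a cytokine receptor of the gp130 family, rose by 0.84, and Il1r1, the signalling receptor for interleukin-1, by 0.54. Erbb3, a neuregulin receptor, went from 16.3, 19.9 and 5.07 CPM to 4.49, 4.44 and 2.55 CPM (log2 fold change -1.65), and Tnfrsf9, the T cell costimulatory receptor 4-1BB, fell by 1.70 on the log2 scale. In the Notch list the ligand Dll1 (-1.24) and the target Hey1 (-0.78) fell and 18 of 20 genes did not pass. In the Wnt list the secreted modulator Sfrp4 (-1.14) fell and 39 of 40 did not pass, and Sfrp4 did not pass with the replicate number as a block (adjusted p = 0.012).

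Targets of the Hippo and serum response pathways were split, with 3 of 32 raised and 2 lowered. Ccn2, the connective tissue growth factor gene that YAP induces, was at 36.3, 38.7 and 8.80 CPM in siCtrl and at 64.2, 73.5 and 31.7 CPM in siSMYD3#2 (1.12, SE 0.19), a call that was lost with the 6 libraries alone (adjusted p = 0.0129). The receptor kinase gene Axl and the LIM protein gene Fhl2 rose by 0.44 and 0.53. Ccn3, from the same family of matrix signalling proteins as Ccn2, went from 24.0, 25.9 and 3.31 CPM to 3.15, 2.94 and 0.392 CPM, a log2 fold change of -3.02 (SE 0.25, adjusted p = 1.45e-06), the largest fall outside the sarcomere list for a mean count of 100 or more. The pathway effector gene Wwtr1, which encodes TAZ, fell by 0.46. Of 28 genes of insulin and IGF signalling, Foxo4 (-0.38, adjusted p = 0.0086) was the only one to pass, and it did not pass with the replicate number as a block (adjusted p = 0.0129).

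Genes of cell death and of inflammation changed in small numbers, beside 1.66% raised and 2.04% lowered of all genes. Of 48 p53 and apoptosis genes, 4 fell (8.33%) and 1 rose (2.08%). The BH3-only genes Bcl2l11 and Bmf, whose proteins start mitochondrial apoptosis, went from 36.6, 39.8 and 38.6 CPM to 17.3, 15.5 and 21.6 CPM and from 44.4, 48.4 and 54.8 CPM to 26.6, 25.6 and 28.7 CPM. Neither pair of groups overlapped, and the falls were -1.07 (SE 0.18) and -0.87 (SE 0.15). Gtse1, the gene of this list that rose (0.48), encodes a protein of the G2 and S phases. Among 41 interferon and antigen genes, Ifit1, which has near copies that make its reads uncertain, rose (1.71, SE 0.33) from a low level of 0.920, 0.980 and 2.57 CPM, Ifitm1 fell by 0.66 on the log2 scale, 39 did not pass, and the list median was 0.22. Of the interferon and antigen genes 2.44% were raised and 2.44% lowered. Among 41 chemokine and cytokine genes, 3 rose (7.32%), of which the chemokine Ccl7 rose by 0.76, and 1 fell (2.44%). Ptgs2, the inducible cyclooxygenase, rose by 0.98, and Jun, a subunit of the AP-1 factor, fell by 0.57 on the log2 scale but did not pass in the NucleoSpin libraries alone (adjusted p = 0.0202).

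Lipid synthesis was the metabolic list with the largest positive median. Of 41 sterol and fatty acid synthesis genes, 3 rose and 0 fell (7.32%, against 1.66% of all genes raised), and the list median was 0.41, with 39 estimates above 0. Leaving out any 1 of the 6 libraries gave 1 raised gene, and the median lay between 0.28 and 0.46. At 0 h the median was 0.21, and for siSMYD3#1 at 24 h, compared with the same siCtrl libraries, it was 0.04. Acaca, the rate-limiting acetyl-CoA carboxylase of fatty acid synthesis, was at 91.3, 94.4 and 114 CPM in siCtrl and at 128, 138 and 210 CPM in siSMYD3#2, a rise of 0.64 (SE 0.09, adjusted p = 0.00018). The fatty acid desaturase genes Fads2 and Fads1 rose by 0.59 and 0.38. Fads2 did not pass with the replicate number as a block (adjusted p = 0.0135), and neither Fads2 (adjusted p = 0.0105) nor Fads1 (0.0156) passed in the NucleoSpin libraries alone. The sterol genes had wide errors and none passed. Insig1, which retains the sterol sensor in the endoplasmic reticulum, was at 61.6, 63.6 and 60.4 CPM against 93.8, 108 and 116 CPM, and although the groups did not overlap its log2 fold change of 0.80 (SE 0.51) had an adjusted p of 0.405. The synthase gene Hmgcs1 was at 0.46 (SE 0.38), and the regulator Srebf2 was at -0.06. In the lipid transport list 3 of 55 genes rose, with Mttp, which loads lipid onto lipoproteins, at 1.34, the lipid carrier Fabp5 at 0.55 and the acyl-CoA synthetase Acsl5 at 0.37.

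Shares called differed between the other metabolic lists, beside 1.66% raised and 2.04% lowered of all genes. Of 50 genes of glycolysis, glycogen and creatine metabolism, 4 fell (8.0%) and 1 rose (2.0%), with a list median of -0.07. In the lists below, 1.45% of respiration and 6.52% of lysosome genes were lowered, and 2.04% of ribosome biogenesis genes were raised. Of the endoplasmic reticulum stress and amino acid list 3.45% were raised and 1.72% lowered. Ckm, the muscle creatine kinase, was at 41.0, 48.8 and 19 CPM in siCtrl and at 7.34, 6.06 and 7.57 CPM in siSMYD3#2, a log2 fold change of -2.26 (SE 0.23, adjusted p = 2.48e-05) that did not pass with the 6 libraries alone (adjusted p = 0.0119). Pgam2, the muscle phosphoglycerate mutase, fell by 1.61 on the log2 scale, Gatm, which makes the precursor of creatine, by 1.33, and the brain-type creatine kinase Ckb by 1.23. Gatm did not pass with the replicate number as a block (adjusted p = 0.0112) or in the NucleoSpin libraries alone (0.0389). Pdk3, which restrains pyruvate oxidation, rose by 0.41. Of 69 respiration and mitochondrial genes, 68 did not pass, the list median was -0.07, and Esrra, an orphan receptor that drives mitochondrial genes, fell by 0.43 and shares 91 exon bases with another gene on its strand. It did not pass with the replicate block (adjusted p = 0.0145) or in the NucleoSpin libraries alone (0.0342). Of 49 ribosome biogenesis genes, the helicase gene Ddx18 rose by 0.49 and 48 did not pass, with 46 of 49 estimates above 0 and a median of 0.20. Of 58 genes of endoplasmic reticulum stress and amino acid supply, the chaperone gene Pdia4 (0.39) and the folate enzyme gene Mthfd1 (0.40) rose and Fgf21 fell, and Mthfd1 did not pass with the block (adjusted p = 0.0121). Of 46 lysosome and autophagy genes 3 fell, Map1lc3a (-0.74), which marks autophagosomes, Ctsa (-0.60), a lysosomal protease, and Tecpr1 (-0.52), which tethers autophagosomes, and the last pair did not pass with the block (adjusted p = 0.0121 and 0.0147), nor Ctsa with the 6 libraries alone (0.0628).

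**Figure D3:**
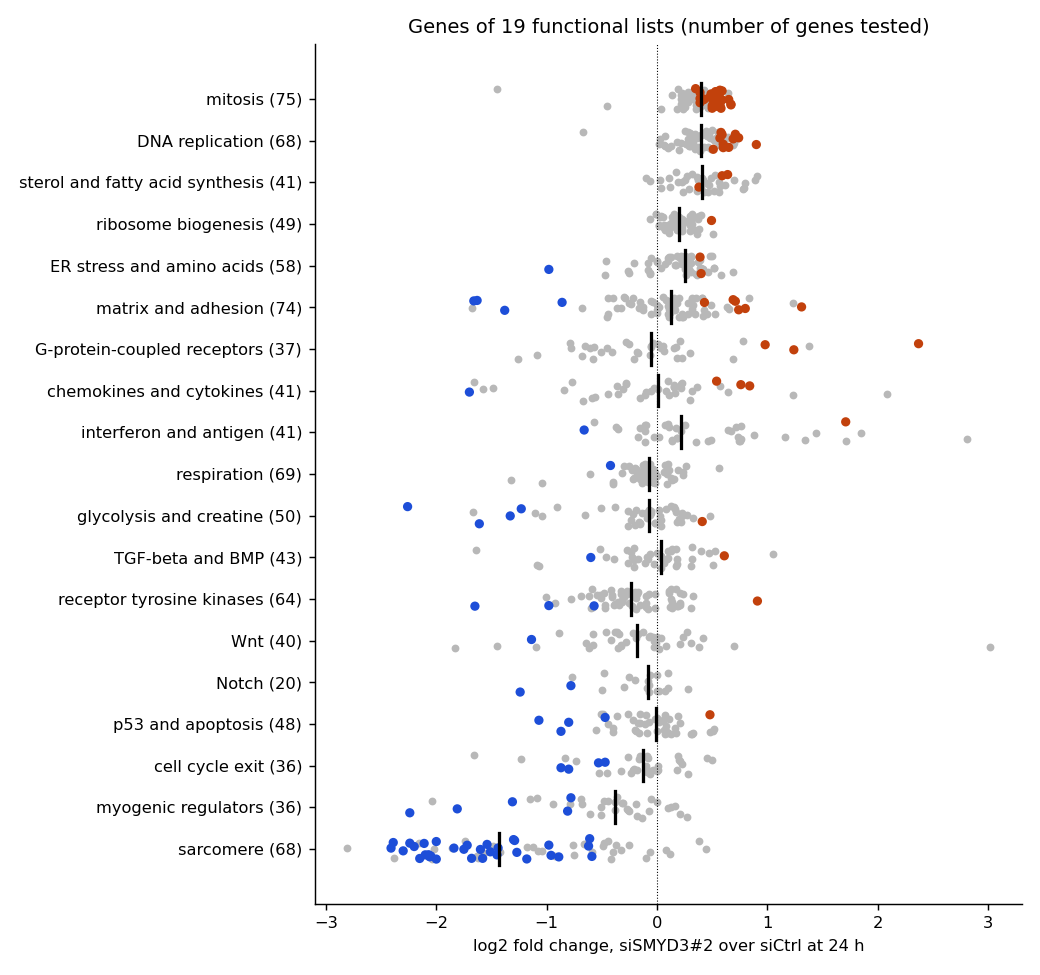
Log2 fold change of siSMYD3#2 over siCtrl at 24 h (horizontal axis) for each tested gene of 19 lists (rows), with orange points raised and blue points lowered at an adjusted p under 0.01, grey points not called, and a black bar for the list median. The mitosis and replication genes form narrow groups around 0.40, the sarcomere genes spread around -1.43, and the signalling lists hold single coloured points on both sides.

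Of 74 matrix and adhesion genes 6 rose (8.11%, against 1.66% of all genes) and 4 fell (5.41%, against 2.04%), with a median of 0.13. At 0 h 0 were called and the list median was 0.14. With siSMYD3#1 at 24 h, compared with the same siCtrl libraries, 27 rose and 6 fell, with a median of 0.55. Nid1, the basement membrane protein nidogen, was at 952, 1002 and 413 CPM in siCtrl and at 1547, 1695 and 644 CPM in siSMYD3#2. Each extraction showed the rise, 0.71 in the fit (SE 0.11), whereas with siSMYD3#1 Nid1 was lower (-0.66), and the difference between the siRNAs was 1.37 and passed. Fn1, fibronectin, was at 12210, 12030 and 5303 CPM against 14910, 14800 and 14090 CPM (0.69, SE 0.15), a rise that was much larger in the TRIzol pair. Col5a3 (0.80), the phosphoprotein Spp1 (0.74) and the protease inhibitor Slpi (1.31) rose as well. Lama2, the laminin chain of muscle basement membrane, fell by 0.86 on the log2 scale, the proteoglycan gene Dcn by 1.38, the serpin Serpinb6b, also with near copies, by 1.63 and the protease gene Mmp10 by 1.66. Mmp10 was at 0.809 and 0.510 CPM in the TRIzol pair, so its change rests on the NucleoSpin libraries.

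The muscle program itself was lower, as the count of sarcomere genes shows: 33 of 68 fell and 0 rose (48.5%, against 2.04% of all genes lowered), with a median of -1.43, of which Myh3 (-2.41) and Hrc (-2.39) were the largest called with at least 20 counts. The count was 18 without siSMYD3#2 NucleoSpin 2, 20 without siSMYD3#2 NucleoSpin 1, 21 without siCtrl NucleoSpin 1 and at most 38. Myog was at 222, 263 and 55.6 CPM in siCtrl and at 48.6, 45.2 and 31.1 CPM in siSMYD3#2 (-1.81, SE 0.28, adjusted p = 0.00125). The fusion genes Mymk and Mymx were at -2.24 and -1.31 and Mef2a, a myogenin partner, at -0.81, while Myod1 (-0.94, SE 0.31) did not pass (adjusted p = 0.0716). In the 6 libraries alone Myog (adjusted p = 0.0538), Mymk (0.0385), Myh3 (0.0715) and Hrc (0.0104) did not pass, while Myod1 did (-0.92, adjusted p = 0.000422), as it did in the NucleoSpin libraries alone (-0.95, adjusted p = 0.000923). With the replicate block Mef2a and Mymx did not pass (adjusted p = 0.0123 and 0.0147), and with DESeq2 Mymx did not (0.141). In the myogenic regulator list 5 of 36 fell and 0 rose. Of the 45 ion channel and transporter genes, the embryonic acetylcholine receptor subunit Chrng (-1.23) and the potassium channel Kcnj2 (-0.85) fell.

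Other large changes are named by size, and whether these genes share a function was not tested. Among rises of genes whose mean count was 100 or more, the adaptor gene Sla went from 2.76, 3.27 and 1.65 CPM to 11.2, 9.75 and 7.02 CPM (1.90, SE 0.21), the interleukin-1 antagonist Il1rn rose by 1.24, the matrix protease Adamts6 by 1.14 and the placental hormone relative Prl2c2 by 1.19, for which near-identical copies make the assignment of reads uncertain. Gm13230, which shares 290 exon bases with a gene on its strand, rose by 1.52, and Oscp1 by 1.10. Prl2c2 did not pass with the 6 libraries alone (adjusted p = 0.0148), nor did Prkag3 (0.0474). Among falls, Prkag3, the muscle subunit of AMP kinase, went from 13.1, 14.3 and 7.25 CPM to 2.18, 2.19 and 4.86 CPM (-2.02, SE 0.38), Hfe2, the hemojuvelin gene, was at -1.77, and Gprc5c, Otog and the glycoprotein gene Gpnmb at -1.96, -1.96 and -1.77. Gpnmb was at 0.598 and 0.510 CPM in the TRIzol pair.

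At 0 h, before differentiation medium, siSMYD3#2 against siCtrl changed 84 genes (0.531%), 50 raised (0.316%) and 34 lowered (0.215%). These libraries are not among those of the 24 h comparison. Smyd3 was at -1.41 there, F2r at 1.24, Npr3 at 1.69, Oscp1 at 1.39 and Ccn2 at 1.16, all called, so that these genes differed before and after the start of differentiation. Myog averaged 1.05 ± 0.843 CPM at 0 h in siCtrl and Ckm and Mymk showed no called difference. The test of the difference between the effects at 24 h and 0 h passed for 3 genes (0.019% of genes tested), and 1585 genes had an unadjusted p under 0.05, so that most genes called at 24 h alone are not shown to differ in effect between the time points. The count was 0 without any 1 of the 4 NucleoSpin libraries and without the extraction covariate, 33 without siSMYD3#2 TRIzol, 40 without siCtrl TRIzol and 113 with DESeq2. siSMYD3#1 at 24 h, compared with the same siCtrl libraries, changed 5.85% of genes. A direct comparison of siSMYD3#2 with siSMYD3#1 at 24 h called 532 genes (3.36%), among them Smyd3 (-1.27), Mki67 (0.44) and Pola1 (0.68). Its contrast has no siCtrl term, although siCtrl libraries entered the shared fit. It called 2 of 75 mitosis and 2 of 68 replication genes higher with siSMYD3#2 and 0 lower, with list medians of 0.21 and 0.3. With siSMYD3#1 against siCtrl at 24 h, 7 mitosis genes rose and 0 fell, with a median of 0.22. Of the replication genes 1 rose and 1 fell there, with a median of 0.13.

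**Figure D4:**
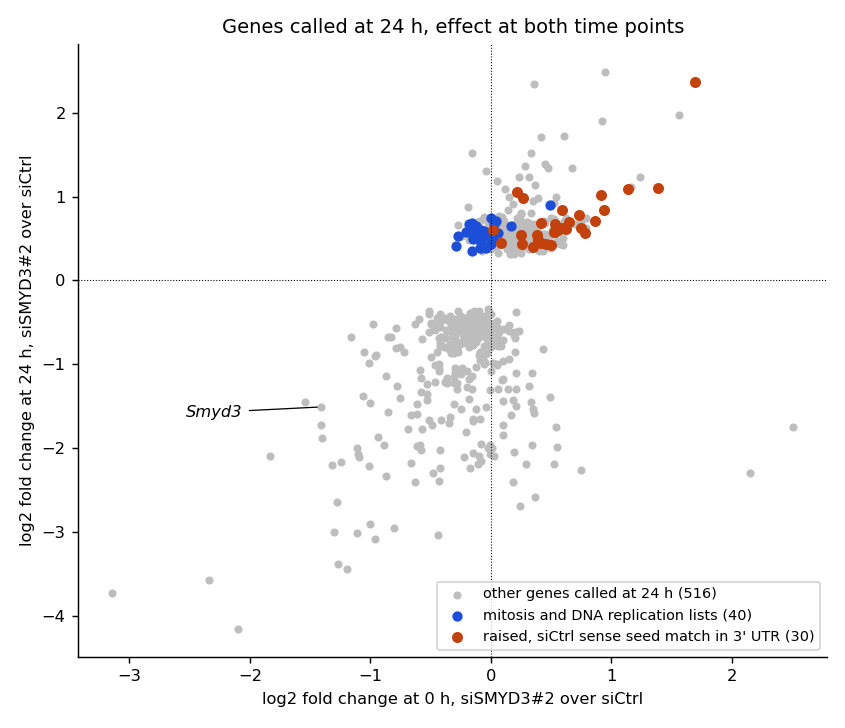
Log2 fold change of siSMYD3#2 over siCtrl at 24 h (vertical axis) against that at 0 h (horizontal axis) for the 586 genes called at 24 h, with the 40 called mitosis and replication genes in blue and 30 raised genes with a siCtrl sense seed match in orange. The blue points lie near 0 at 0 h except Dbf4 (0.49), while most orange points lie above 0 at both times.

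Seed matches gave a further description of the calls. A small RNA can lower transcripts whose 3′ untranslated region (UTR) is complementary to its seed, and 12534 genes tested had an annotated 3′ UTR of at least 20 bases. The match of the siSMYD3#2 antisense seed, AGATTTG, was in 1712 of them. At 24 h their median log2 fold change was 0.001 against 0.0 for genes without it, and 3.21% were lowered against 2.46%. At 0 h the median was -0.062 against 0.004, and 1.34% were lowered against 0.102%, so that 23 of the 34 genes lowered at 0 h (67.6%) held a match, compared with 13.7% of genes with a UTR. Smyd3, the intended target, is one of the 23, with 2 matches. Others were the kinase genes Prkx (-1.05 at 0 h and -0.85 at 24 h) and Prkci (-0.85 and -0.67), Galc, a lysosomal galactosidase (-0.96 and -0.90), the RNA-binding protein gene Mex3b (-0.79 and -0.81) and the magnesium channel gene Mrs2 (-0.75 and -0.80). With siSMYD3#1 at 24 h the first 4 of these were at 0.02, 0.05, 0.05 and -0.05, and Mrs2 at -0.58. These examples were also called lower at 24 h with siSMYD3#2, but others of the 23 were not called then. Among those were Fgf7 (-0.99 at 0 h and -0.34 at 24 h) and Zfp367 (-0.83 and -0.16).

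The remaining strands were searched after the data were seen, which makes 6 strands, each in 4 comparisons. The match of the siCtrl sense seed, TCGGAGA, was in 267 genes. At 24 h 30 of them (11.2%) were raised by siSMYD3#2 relative to siCtrl and 2 lowered, against 1.81% raised among genes without the match, and the median was 0.143. At 0 h 16 (5.99%) were raised and 0 lowered, against 0.277%, with a median of 0.114, and these 16 were 32.0% of the genes raised at 0 h. With siSMYD3#1 at 24 h, which shares the siCtrl libraries, 35 (13.1%) were raised. In siSMYD3#2 against siSMYD3#1, whose contrast has no siCtrl term, 5 were raised and 5 lowered and the median was -0.012. The siCtrl libraries still entered the shared fit behind these calls. For the siCtrl antisense match, TGTCACG, 18 of 369 genes (4.88%) were raised at 24 h. Genes with the siCtrl sense match had a longer median UTR than the others (2603 against 1164 bases). The siSMYD3#2 sense and antisense matches, in genes with median UTRs of 2587 and 2660 bases, went with 1.02% and 1.87% raised at 24 h. Whether these matches have a part in any difference was not tested.

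Taldo1, a pentose phosphate enzyme gene with 1 siCtrl sense match, was at 76.6, 80.1 and 56.4 CPM in siCtrl and at 175, 176 and 106 CPM in siSMYD3#2. Its log2 fold change was 1.09 at 24 h (SE 0.10), 1.14 at 0 h and 0.85 with siSMYD3#1, all called. Npr3, Oscp1, the glycosylation gene Galnt7 (1.02), the ubiquitin ligase adaptor Spop (0.57) and the translation termination factor Etf1 (0.62) hold the match as well and were called at both times. Hmga2, a chromatin protein of undifferentiated cells, also holds it, together with 2 siSMYD3#2 antisense matches, and rose by 1.05 at 24 h but was at 0.22 at 0 h and at 0.24 with siSMYD3#1. F2r, Dbf4, Hgf, Acaca and Cdkn1a hold no siCtrl sense match. Leaving out every gene with a siCtrl sense or siSMYD3#2 antisense match left 205 raised and 266 lowered genes. Of these lists 25 of 66 mitosis genes (37.9%) and 10 of 61 replication genes (16.4%) were raised, with medians of 0.39 and 0.37. Of all 13904 genes left 1.47% were raised. Genes that held only matches of the other strands, siCtrl antisense included, were kept, as were genes without an annotated UTR.

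**Figure D5:**
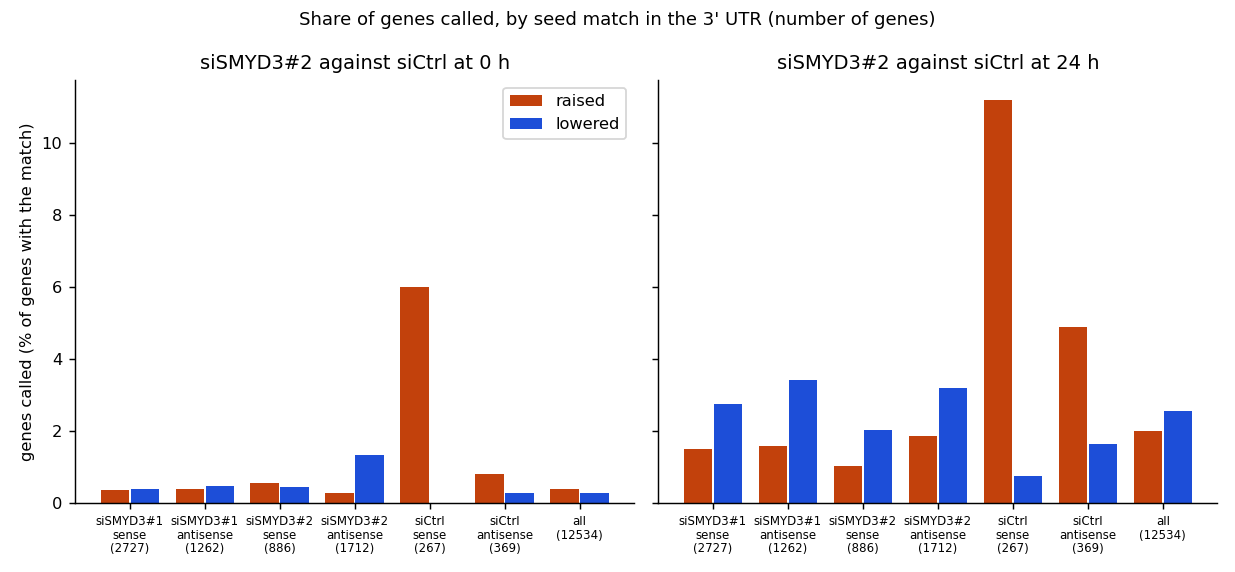
Percent of genes raised (orange) and lowered (blue) by siSMYD3#2 against siCtrl at 0 h and 24 h (vertical axis, from 0) among genes whose 3′ UTR holds the seed match of each of 6 siRNA strands, and among all 12534 genes with a UTR, with gene numbers in parentheses. The siCtrl sense match has the highest share raised, 5.99% at 0 h and 11.2% at 24 h, and the siSMYD3#2 antisense match the highest share lowered at 0 h, 1.34%.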

How the data were processed

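RNA-Seq libraries (stranded, poly(A)-selected, paired-end) were aligned by the authors to GRCm38 with HISAT2 2.1.0, and reads were counted per gene with featureCounts of Subread 1.6.3. The deposited values are raw counts per gene for each library, whole numbers without normalization. Strand setting, annotation release and treatment of multi-mapping reads are not given in the sources used here, so genes that overlap (6 of 97 named genes on the same strand, 23 on the opposite strand) or have near copies are uncertain. Checked pairwise, 0 pairs of siRNA libraries were identical.

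All 18 siRNA libraries (14315193 to 60398170 counts) were fitted as 6 groups with extraction as covariate in edgeR 4.0.16 (R 4.3.3): filterByExpr, TMM, robust quasi-likelihood test, Benjamini-Hochberg over 15820 genes, threshold 0.01. SE is the log2 fold change divided by the square root of F. Scripts were tested on simulated data. Symbols, coordinates and 3′ UTRs (longest per gene) came from GENCODE M21, promoters from RefSeq (GRCm38.p6), and siRNA strands from the study's oligonucleotide table. Counting intervals were not used, since replicate spread sets the errors. The 8 overexpression libraries were not used.

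Groups came from the sample labels. Replicate numbers came from the study's read table. Same-numbered libraries deviated together (r = 0.826, 0.599 and 0.584 over 15820 genes), but so did the differently numbered NucleoSpin libraries (0.557 and 0.556), and within NucleoSpin r was 0.057, so the pairing cannot be told apart from extraction. The groups and gene lists were chosen with earlier results of these data known. The genes named were Smyd3, Myod1, Myog, Ccnd1, Cdkn1a and Mki67, the 10 largest rises and 10 largest falls outside the sarcomere list (at least 100 counts on average, same side within both extractions), up to 4 called genes per list and direction (2 for the sarcomere, at least 20 counts), and, where none of a list passed, optionally its smallest p. Others were named after their values were seen: Cdk1, Top2a, Kif11, Nek2, Mcm2, Mcm5, Pcna, E2f1, E2f2, Myc, Cdkn1b, Cdkn1c, Aurka, Fn1, the sterol genes, the other SMYD genes, Des, Myf5, the seed-match examples and those of the closing section. Some results under this rule are not reported here. Alternatives were RLE scaling, DESeq2 1.42.0, other filters, covariates, library subsets, a replicate block and other thresholds.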

Additional observations from a re-analysis of the deposited data

Results flagged for a closer look

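The effect of siSMYD3#2 differed between 24 h and 0 h in 3 genes by the interaction term of the edgeR quasi-likelihood fit, with Benjamini-Hochberg adjustment over 15820 genes. For Hist1h1c, a linker histone gene, the effect at 24 h minus that at 0 h was -1.05 (SE 0.14, adjusted p = 0.00453): it averaged 48.5 ± 14.2 CPM in siCtrl and 49.9 ± 12.5 CPM in siSMYD3#2 at 0 h, and 152 ± 12.6 and 76.7 ± 14.6 CPM at 24 h (SD, n = 3). For Iffo1, an intermediate filament family gene, it was -0.88 (SE 0.12, adjusted p = 0.00496), with 24.5 ± 0.644 and 21.3 ± 1.43 CPM at 0 h and 121 ± 8.37 and 57.2 ± 4.17 CPM at 24 h. For Tgfb3 it was -0.83 (SE 0.11, adjusted p = 0.00453), with 45.8 ± 5.27 and 53.8 ± 4.56 CPM at 0 h and 79.7 ± 10.6 and 52.4 ± 6.29 CPM at 24 h. In all 3 the siSMYD3#2 libraries lay below the siCtrl libraries at 24 h within both extractions. The number of such genes was 0 when any 1 of the 4 NucleoSpin libraries was left out and 0 without the extraction covariate, and it was 33 without siSMYD3#2 TRIzol, 40 without siCtrl TRIzol and 113 with DESeq2.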

How the results depend on the processing

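The 586 calls at 24 h (263 raised, 323 lowered) depended on the fit, the libraries and the threshold. They numbered 1044 (521 raised, 523 lowered) with DESeq2, 1170 (536, 634) without a low-count filter, 1248 (556, 692) with an extraction effect per time point, 1770 (901, 869) with the 6 libraries alone, 1275 (496, 779) with NucleoSpin libraries alone, 1426 (684, 742) at an adjusted p under 0.05, 161 (26, 135) at a change of at least 2-fold, and 18 (6, 12) without the extraction covariate. Leaving out 1 library gave 174 to 570 calls (76 to 220 raised, 98 to 358 lowered). Raised mitosis genes, 29 in the fit reported, numbered 46 with the 6 libraries alone, 46 with NucleoSpin alone, 0 without the covariate, 0 at 2-fold, and 3 to 24 with 1 library left out. Raised replication genes, 11 there, numbered 23 with DESeq2, 33 without the filter, 20 with extraction per time point, 41 with the 6 libraries, 30 with NucleoSpin, 26 at 0.05, 0 without the covariate, 0 at 2-fold, and 1 to 9 with 1 library left out. Differences between the 24 h and 0 h effects numbered 113 with DESeq2, 0 without the covariate and 0 to 40 with 1 library left out (0 in 4 of 6 such fits), and those between the siRNAs 1021, 25 and 180 to 596. With the replicate number as a block 503 genes were called (230 raised, 273 lowered), and of the named genes it ended only the calls given with a block value in the report. With 1 library left out, 18 to 55 of the 97 named genes lost their call, the most without siSMYD3#2 NucleoSpin 2. Without the extraction covariate 86 lost it. These losses are not given gene by gene. Smyd3 lay between -1.83 and -1.38 with 1 library left out. Pparg, at 0.17 and not called, was at -0.04 without siCtrl TRIzol, -0.01 without siSMYD3#2 NucleoSpin 1 and up to 0.43 with 1 library left out, and Runx2, at -0.03 and not called, was at 0.02 and 0.01 without siCtrl and siSMYD3#2 NucleoSpin 2 and down to -0.1. RLE scaling (588) and a filter at 50 counts (594) moved the total little. Leaving out siCtrl TRIzol gave 544 calls, of which 403 were among the 586, and leaving out siSMYD3#2 TRIzol gave 570, of which 410 were. Leaving out a NucleoSpin library gave 174 to 262 calls, of which 172 to 255 were among the 586. The cause of the shifts was not tested.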

Other observations

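Of the genes called at 24 h, 445 were in none of the 35 gene lists. The genes below are single examples chosen from them after their values were seen. No list of their kind was counted, so the values describe these genes and no group. Eme1, a subunit of a Holliday junction nuclease, rose by 0.95, the Fanconi anaemia gene Fanci by 0.73, the replication initiator Ticrr by 0.68 and the checkpoint kinase gene Atr by 0.52. Kpnb1, a nuclear import receptor gene, was at 518, 547 and 533 CPM in siCtrl and at 762, 813 and 763 CPM in siSMYD3#2. The groups did not overlap, and the rise was 0.55 (SE 0.10, adjusted p = 0.00151, edgeR quasi-likelihood test).

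Ngfr, the low-affinity neurotrophin receptor, was at 7.36, 7.45 and 0.633 CPM in siCtrl and at 0.606, 0.519 and 0.157 CPM in siSMYD3#2 (-3.44, SE 0.36, adjusted p = 2.75e-05), and with siSMYD3#1 it was at 0.03. Il2rg, the common cytokine receptor chain, was at 8.02, 8.29 and 1.27 CPM against 2.00, 1.79 and 0.431 CPM (-1.97). Both genes were several-fold lower in the TRIzol than in the NucleoSpin siCtrl libraries. Other genes known from blood cells were called in both directions. Cd33 (-4.16), Csf2rb2 (-2.3), Nckap1l (-1.72) and Sirpa (-1.21) were lower, and the adaptor Sla (1.90) was higher. Cd33 and Csf2rb2 had low mean counts of 19.5 and 16.8. The leukocyte markers Adgre1 and Cd3e had 0 counts in all 6 libraries, Ptprc at most 1 and Itgam at most 3, while Csf1r had up to 30, with a log2 fold change of -0.14.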
